A study of Drosophila melanogaster with 64 samples.

Results

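The amidase peptidoglycan recognition proteins (PGRPs) of Drosophila melanogaster are PGRP-LB, PGRP-SB1, PGRP-SB2, PGRP-SC1a, PGRP-SC1b and PGRP-SC2. The members were the rows of the deposited count table whose FlyBase identifiers carry these symbols, and all 6 were found among 17752 genes. RNA sequencing covered the female reproductive tract (FRT) in separate pieces, namely bursa, seminal receptacle, spermathecae, parovaria and oviduct, together with the fat body attached to it, in unmated females and in females 6 h or 24 h postmating. Unmated whole females without the FRT served as the outside reference, and they kept their ovaries. Females of every group came from the wild-type laboratory strain LHM, were 3 to 8 days old and carried no transgene or treatment other than mating to LHM males. Each tissue library pooled tissue dissected from many females, so a replicate is a pool and not a single fly. The 64 libraries fell into 19 groups of 2 to 4.

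Peptidoglycan is the sugar and peptide mesh of the bacterial cell wall, and fragments of it are what the Imd pathway of the fly senses through receptor PGRPs such as PGRP-LC and PGRP-LE. The signal ends in the NF-kappaB factor Relish and in the transcription of antimicrobial peptide genes. Amidase PGRPs cut the bond between the sugar chain and the peptide, which leaves fragments that stimulate the receptors poorly. PGRP-LB is itself a transcriptional target of the pathway and limits it through this cleavage, PGRP-SB1 is a secreted amidase known from the infected fat body, and the PGRP-SC genes are known mainly from the gut, where they restrain the response to resident bacteria.

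The members lie in 3 places of the genome (positions from annotation BDGP6.54, the assembly line of the FlyBase r6.21 genome used for mapping). PGRP-LB (FBgn0037906) spans 3R:11452849-11460552 on the reverse strand with 6 annotated transcripts in 5 exon blocks. PGRP-SB1 (FBgn0043578, 3L:16727299-16727989, reverse) and PGRP-SB2 (FBgn0043577, 3L:16726541-16727288, forward) are neighbours separated by 10 bp. PGRP-SC1a (FBgn0043576, 2R:8709733-8710320), PGRP-SC1b (FBgn0033327, 2R:8713446-8715094) and PGRP-SC2 (FBgn0043575, 2R:8716950-8717695) follow each other on the forward strand, with 3125 bp and 1855 bp between them. PGRP-LB overlaps CG17230 on the opposite strand. Whether counting used strand is not given in the sources used here, so reads of the overlap cannot be told apart, and CG17230 itself stood at 0 to 4.39 CPM (counts scaled to a common library total) in the dissected tissues and at 26.7 to 32.8 CPM in the whole female.

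Library totals ran from 12177864 to 26860149 counts (median 24545411.5), and 3 counts correspond to 0.112 to 0.246 CPM. Libraries were sequenced in 2 runs of 26 and 38. Levels between tissues are given as CPM over the library total. Within a tissue they are given as normalised CPM, scaled with edgeR's TMM factors (trimmed mean of M-values), which ranged from 0.581 to 1.49. Testing in a tissue required more than 2 CPM in 2 or more libraries from the same group. PGRP-LB, PGRP-SB1 and PGRP-SC2 passed in all 6 tissues, and PGRP-SB2, PGRP-SC1a and PGRP-SC1b passed in none. As a check of the labels, 8 fat body markers summed to 21450 to 53810 CPM in unmated fat body and to 3861 to 21820 CPM in the unmated FRT tissues, so the ranges met at their ends. Of 15 gut markers, the sum was 0.449 to 11.3 CPM in all unmated tissue libraries but 1, and 4354 to 5230 CPM in the whole female. The exception was spermathecae replicate 1 of the unmated group, at 411.8 CPM, led by the gut protease gene alphaTry. No marker list was used for the individual FRT tissues.

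In unmated females PGRP-LB was highest in the bursa, followed by the seminal receptacle. The 4 bursa libraries held 161, 145, 190 and 236 CPM. The 3 seminal receptacle libraries held 40.7, 41.6 and 37.1 CPM, below every bursa library and above every library of the other tissues. Oviduct (23.0, 12.8 and 23.0 CPM) and parovaria (20.4, 20.1, 19.1 and 17.2 CPM) came next and overlapped each other. The whole female held 10.1 and 8.11 CPM, the spermathecae 8.53, 8.94, 7.67 and 8.08 CPM, and the fat body 9.76, 9.53, 4.46 and 6.53 CPM, so these last groups could not be ordered. Differences in tissue level in such pooled bulk samples do not tell apart a smaller share of cells that express a gene from less RNA per cell.

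Tissue pairs were tested in a single edgeR quasi-likelihood fit of the unmated tissues, with a call at a Bonferroni-adjusted p of at most 0.01. For PGRP-LB 7 of 15 pairs were called, and 5 of these set the bursa above another tissue. The bursa level exceeded that of the seminal receptacle by 2.36 ± 0.21 (log2 fold change ± SE, 5.14-fold, adjusted p = 4.09e-06) and that of the spermathecae by 4.10 ± 0.21 (17.2-fold, adjusted p = 7.95e-11). The seminal receptacle also stood above the spermathecae (3.34-fold, adjusted p = 0.000247). The spermathecae stood below the parovaria (2.91-fold, adjusted p = 0.000739), a call that was lost without TMM factors (adjusted p = 0.252). The seminal receptacle and the fat body differed by 0.70 with TMM factors (adjusted p = 1) and by 2.39 without them (adjusted p = 2.78e-05). Between the seminal receptacle and the parovaria the difference was 0.20 ± 0.20 with TMM factors and 1.05 without them, and neither was called. Over all genes 18.9% of pairwise tests were called, against 15 of the 45 tests of the members.

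PGRP-SB1 was highest in the fat body. Its 4 unmated fat body libraries held 919, 610, 654 and 599 CPM. The seminal receptacle held 41.2, 88.1 and 41.1 CPM and the whole female 73.1 and 38.1 CPM. Parovaria (43.6, 44.3, 28.4 and 24.2 CPM), spermathecae (51.3, 38.8, 24.1 and 25.0 CPM) and oviduct (34.2, 27.9 and 26.9 CPM) overlapped, and the bursa had the lowest mean, with 21.7, 14.5, 25.0 and 25.4 CPM, overlapping parovaria and spermathecae. All 5 pairs with the fat body were called and no other pair was. Over all genes, 35.1% to 37.7% were called in a pair with the fat body, and 4.13% to 17.9% in a pair without it. The fat body exceeded the bursa 97.3-fold (log2 difference bursa minus fat body -6.61 ± 0.365, adjusted p = 4.11e-10) and the parovaria 38.4-fold (adjusted p = 9.46e-09). Without TMM factors the log2 difference between bursa and fat body was -5.00. The summed fat body markers were also lowest in the bursa (3861 to 6287 CPM) and highest in the fat body, and the part of attached fat body in the PGRP-SB1 level of the FRT tissues was not tested.

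PGRP-SC2 was scarce in the unmated tract. In CPM over the library total the highest level was outside it, at 18.98 and 14.9 CPM in the whole female. The fat body followed with 5.67, 6.83, 6.17 and 11.2 CPM, below the whole female. This order depends on the scaling. With TMM factors over all libraries the means were 17.05 CPM in the fat body and 6.73 CPM in the whole female. Spermathecae (3.45, 2.18, 2.96 and 3.96 CPM) and seminal receptacle (1.76, 3.43 and 3.96 CPM) overlapped. Parovaria (1.32, 0.907, 0.816 and 1.26 CPM), oviduct (0.611, 0.868 and 1.14 CPM) and bursa (0.576, 0.193, 0.822 and 0.871 CPM) overlapped as well, at 5 to 35 counts per library. The called pairs were 3, and each set the fat body above another tissue: the bursa (37.5-fold, adjusted p = 2.37e-06), the oviduct (30.8-fold, adjusted p = 3.74e-05) and the parovaria (13.3-fold, adjusted p = 0.00021). Over all genes these pairs were called for 36.9%, 37.5% and 37.7% in the same order, in either direction. The library of spermathecae with the gut marker transcripts held 3.45 CPM, within the range of its group.

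**Figure D1:**
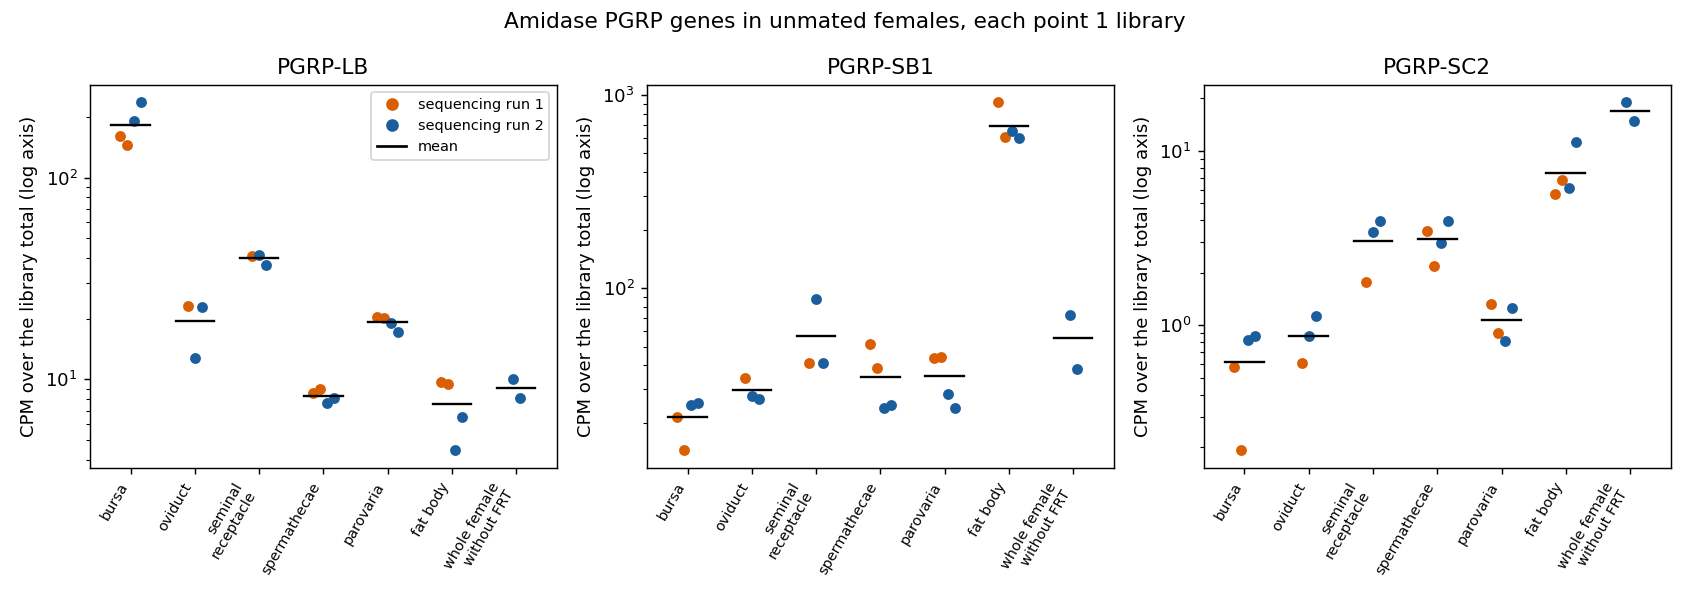
CPM over the library total (log axis) of PGRP-LB, PGRP-SB1 and PGRP-SC2 in each unmated tissue and in the whole female without FRT; each point is 1 library coloured by sequencing run, and each line is the group mean. On this scale PGRP-LB peaks in the bursa (145 to 236 CPM) and PGRP-SB1 in the fat body (599 to 919 CPM). PGRP-SC2 peaks on it in the whole female (14.9 to 18.98 CPM), an order that turns against the fat body with TMM factors.

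Levels of different genes can be set side by side only per length of transcript. In CPM per kb of exon, averaged over libraries, the unmated bursa held 103 of PGRP-LB, 34.8 of PGRP-SB1 and 0.825 of PGRP-SC2. The fat body held 4.26, 1117 and 10.01 in the same order, and the spermathecae held 4.68, 55.9 and 4.20. PGRP-LB was thus the most abundant amidase transcript of the bursa, and PGRP-SB1 that of every other unmated tissue.

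Against the whole female a call needed a Bonferroni-adjusted p of at most 0.001 and a log2 difference of 2 or more. By that rule PGRP-SB1 in the fat body was the only one of 18 member-by-tissue tests called (log2 fold change 6.39 ± 0.47, 84.0-fold, adjusted p = 0.000929), where 2.44% of genes were called higher in that tissue. The call did not hold without TMM factors (3.64, adjusted p = 0.164), nor without either whole female library, nor without fat body replicate 1 or 4. PGRP-LB in the bursa was 39.3-fold above the whole female (5.30 ± 0.33) with an adjusted p of 0.00364, above the threshold. PGRP-SC2 in the bursa stood at -3.80 ± 0.51 and in the oviduct at -3.59 ± 0.39, with adjusted p of 0.821 and 1. Leaving out TMM factors moved the median log2 difference of all genes to -3.19 in fat body (-0.53 with them) and to -1.12 in bursa (-0.15 with them), so directions against the whole female are relative to that choice. In the fat body the direction for PGRP-LB and PGRP-SC2 turned with the scaling, from 2.37 and 1.57 with TMM to -0.27 and -1.18 without it, and so did PGRP-LB and PGRP-SB1 in the spermathecae (1.24 and 0.72 against -0.13 and -0.68) and PGRP-SB1 in the parovaria (1.02 against -0.67).

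The remaining members were near or below the limit of detection. PGRP-SB2, the neighbour of PGRP-SB1 and a predicted amidase, had a count in 12 of 64 libraries and 119 counts in all. The unmated fat body held 18, 3, 12 and 0 counts, the fat body at 6 h 4, 20 and 17 counts, and the fat body at 24 h 19 and 7 counts. Outside the fat body 4 libraries held 3 to 10 counts. No PGRP-SB2 count was listed in either whole female library, which allows up to 3 counts, or 0.122 to 0.123 CPM, per library.

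PGRP-SC1a and PGRP-SC1b are near-identical copies, and their counts were close in every library. They were equal in 46 of 64 libraries, of which 28 had both at 0, and differed by at most 5 counts. How reads that fit both copies were shared out is not given in the sources used here, so the copies are best read together. The whole female held 36 and 40 counts of PGRP-SC1a and 35 and 35 of PGRP-SC1b. The highest tissue value was in the fat body at 6 h, with 12 and 10 counts in one library, and unmated fat body held 2 to 6 counts of PGRP-SC1a and 1 to 5 of PGRP-SC1b. In the seminal receptacle at 6 h the counts were 0 to 7 and 1 to 5. These members were not tested in the main fits, and no fold change is given for them.

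**Figure D2:**
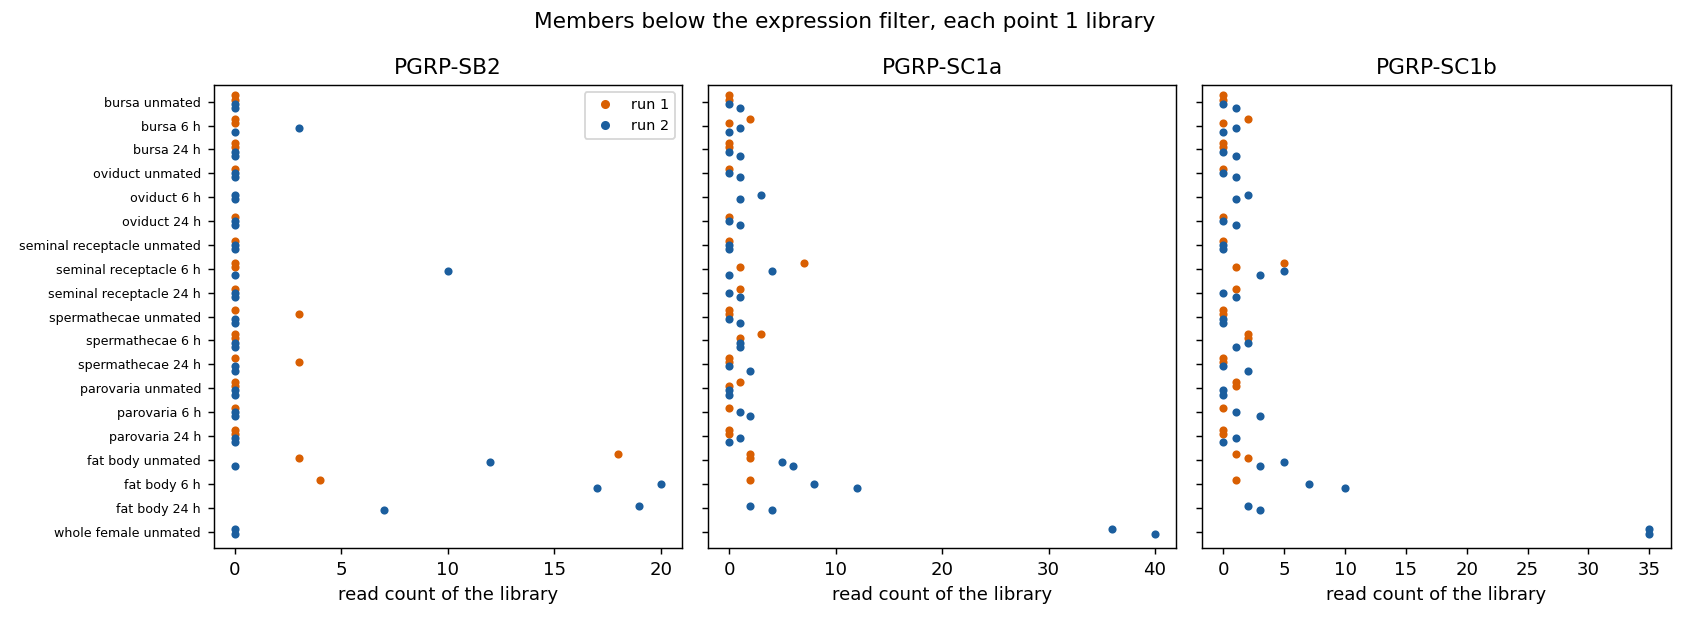
Read counts (linear axis) of PGRP-SB2, PGRP-SC1a and PGRP-SC1b in every library, one line of points per group and coloured by run. PGRP-SB2 counts sit mainly in the fat body (0 to 20), and the PGRP-SC1 copies reach their highest counts in the whole female (35 to 40).

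Mating was followed by the largest change of any member in the spermathecae, where PGRP-SC2 went from near 3 to over 170 normalised CPM. Unmated libraries held 3.39, 2.15, 3.16 and 4.34. At 6 h they held 172, 228, 288 and 291, and at 24 h 19.3, 29.7, 16.9 and 26.6. The 3 time points did not overlap, and how many of all genes separate in this way was not computed. PGRP-SC2 rose 75.1-fold at 6 h (log2 fold change 6.23 ± 0.32, 95% interval 5.54 to 6.92, Bonferroni-adjusted p = 7.34e-07) and was still up 7.10-fold at 24 h (2.83 ± 0.27, adjusted p = 0.00143). Between 6 h and 24 h it fell by 3.40 on the log2 scale (adjusted p = 0.000177), leaving 0.0946 of the 6 h level.

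Of 7624 genes tested in the spermathecae, 0.157% were called higher at 6 h, 0.0525% were called higher at 24 h and 0.0918% were called lower at 24 h than at 6 h. PGRP-SC2 had the smallest p of all of them at 6 h and the third largest log2 fold change. Both sequencing runs showed the rise, with log2 changes of 6.19 in run 1 and 6.27 in run 2, and adjusted p = 1.76e-06 with the run as a covariate. With run 1 alone, which leaves 2 libraries per group, the adjusted p was 0.0469. The 24 h call was lost without unmated replicate 1 (adjusted p = 0.0126) or replicate 3 (0.0165), at log2 changes of 2.84 and 2.81, and with run 2 alone (2.54, adjusted p = 0.4) or run 1 alone (3.14, adjusted p = 1). The call between 6 h and 24 h was lost in either run alone as well, at -3.72 and -3.05. Replicate 1 is the library with gut marker transcripts. In the 6 h libraries gut markers summed to 2.17 to 7.61 CPM, against 4354 to 5230 CPM in the whole female.

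In the other FRT tissues PGRP-SC2 was also higher at 6 h than before mating in every library. The share of all genes with such separation was not computed, and no test of PGRP-SC2 in these tissues passed the Bonferroni threshold. The parovaria came closest, with 1.13, 0.702, 0.894 and 1.42 normalised CPM unmated, 7.47, 14.5 and 9.51 at 6 h and 0.744, 1.34, 1.59 and 2.099 at 24 h. This 10.1-fold difference (3.34 ± 0.37) had a Bonferroni-adjusted p of 0.0114, against 0.0044 with the run as a covariate, and a Benjamini-Hochberg adjusted p of 0.0019. The oviduct libraries held 0.516, 0.748 and 1.04 unmated, 16.1 and 11.4 at 6 h and 0.496, 2.25 and 1.42 at 24 h (4.16 ± 0.60 at 6 h, Benjamini-Hochberg adjusted p = 0.021). Its 6 h group came from run 2 only.

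In the bursa the 4 unmated libraries held 0.465, 0.155, 0.777 and 0.711 normalised CPM of PGRP-SC2, and the 6 h libraries 0.901 and 1.43 in run 1 against 13.6 and 4.07 in run 2. The seminal receptacle showed the same split, with 1.66, 3.87 and 3.90 unmated, then 5.73 and 7.77 in run 1 against 40.8 and 23.5 in run 2 at 6 h. Log2 fold changes were 3.22 ± 0.85 (Benjamini-Hochberg adjusted p = 0.0166) and 2.63 ± 0.73 (adjusted p = 0.152). In the fat body the groups overlapped (0.71 ± 0.54). Its unmated libraries held 4.18 and 4.96 in run 1 and 7.85 and 10.8 in run 2. At 6 h the single run 1 library held 2.74, and those of run 2 held 15.7 and 15.8. The overlap thus rested on that 1 library of run 1. At 24 h no PGRP-SC2 change outside the spermathecae was called by either adjustment, and the log2 values ran from 0.45 in the bursa to 0.93 in the seminal receptacle.

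**Figure D3:**
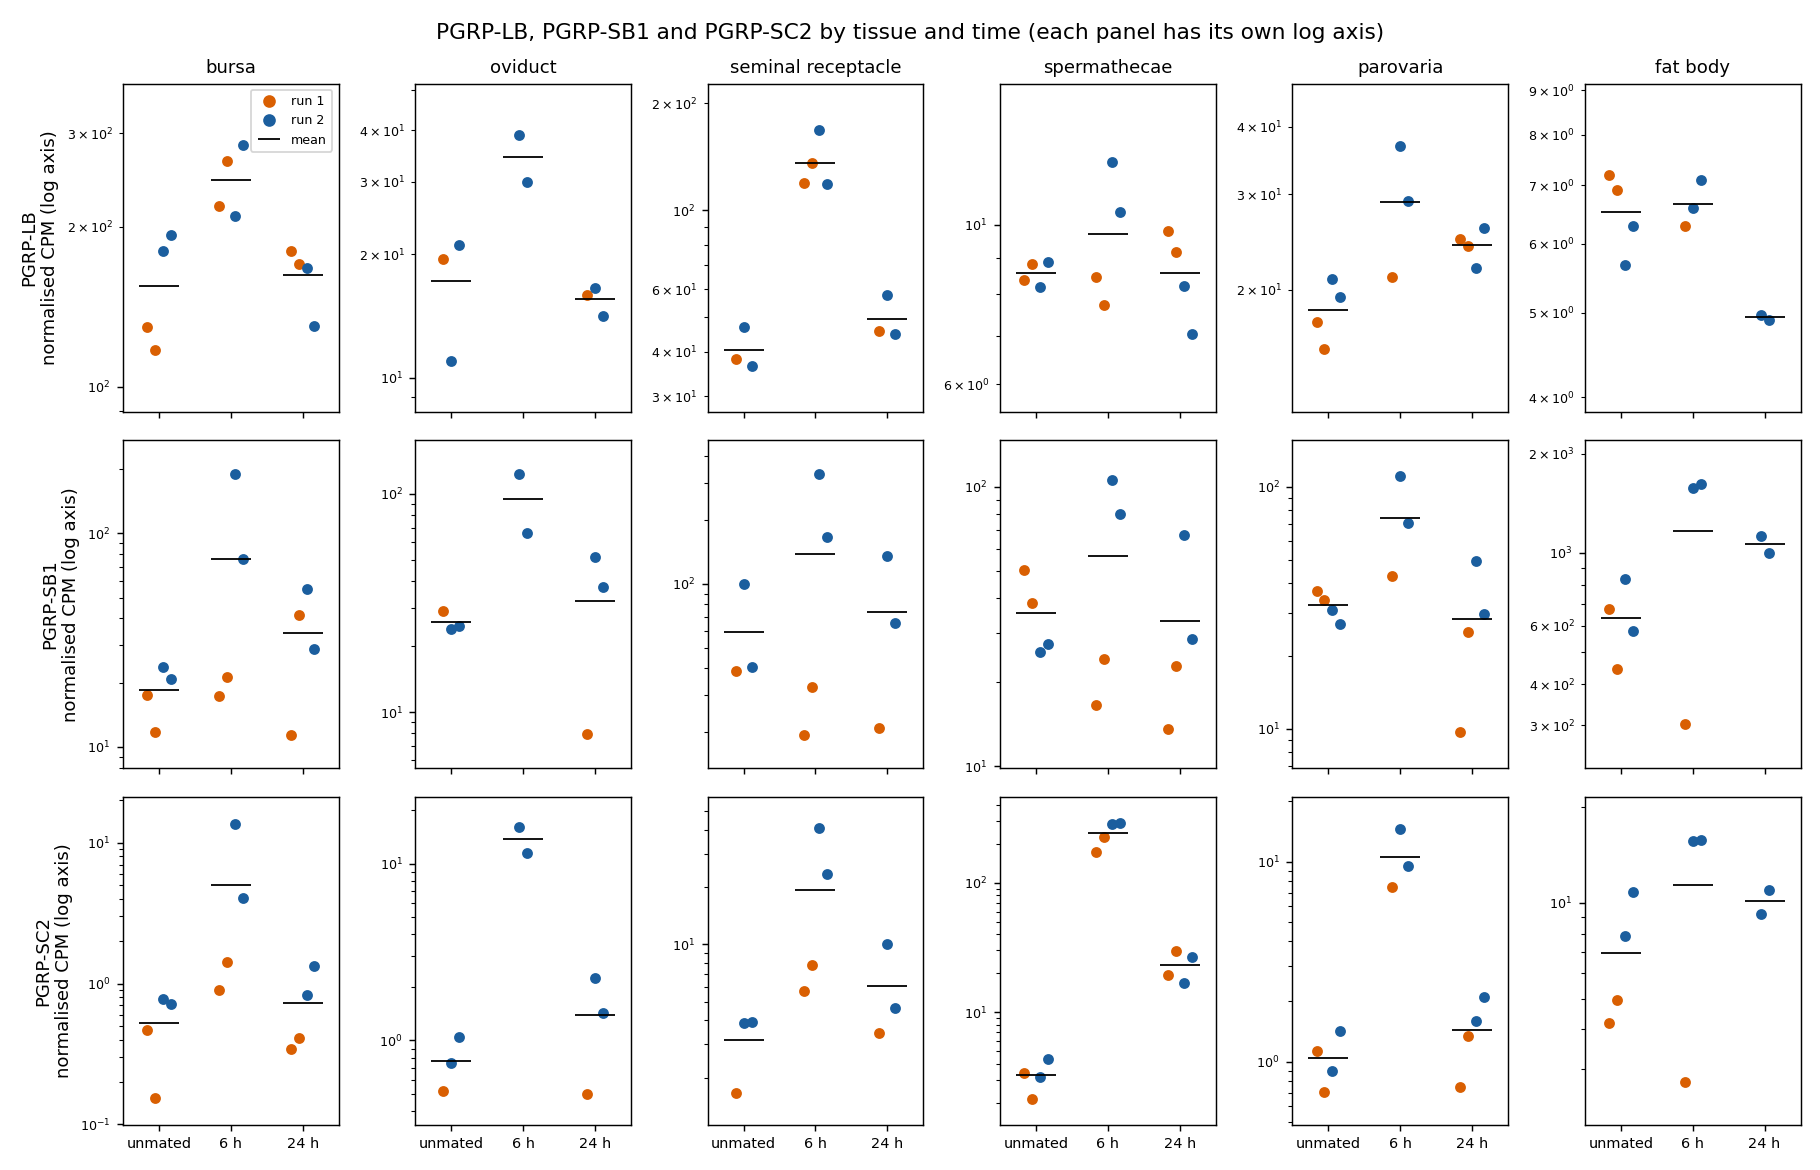
Normalised CPM (each panel with its own log axis) of PGRP-LB, PGRP-SB1 and PGRP-SC2 in the unmated, 6 h and 24 h libraries of each tissue; points are libraries coloured by run, and dashes are group means. The spermathecae panel of PGRP-SC2 rises from 2.15 to 4.34 to 172 to 291 and returns to 16.9 to 29.7, while the PGRP-SB1 panels at 6 h split by run.

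In normalised CPM, PGRP-LB was higher in every 6 h library than in every unmated one in the seminal receptacle, bursa, oviduct and parovaria. The largest difference was in the seminal receptacle, and the separation in the bursa depended on the scaling. The share of all genes whose libraries separate in this way was not computed, and groups held only 2 to 4 libraries. In the seminal receptacle the unmated libraries held 38.3, 46.9 and 36.6 normalised CPM, the 6 h libraries 120, 136, 168 and 118, and the 24 h libraries 45.9, 57.6 and 44.8. Neither the unmated nor the 24 h libraries overlapped those at 6 h. The 3.34-fold difference (1.74 ± 0.21) reached a Bonferroni-adjusted p of 0.0808 and a Benjamini-Hochberg adjusted p of 0.0101, was 1.76 in run 1 and 1.77 in run 2, and was called by DESeq2 (Bonferroni-adjusted p = 2.97e-12). By p it ranked 8 of 8141 genes.

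In the bursa PGRP-LB went from 130, 117, 180 and 193 normalised CPM to 219, 265, 210 and 284 at 6 h and 180, 170, 168 and 130 at 24 h (0.66 ± 0.20 at 6 h, Benjamini-Hochberg adjusted p = 0.0286). In CPM over the library total the bursa groups overlapped, at 145 to 236 unmated and 122 to 394 at 6 h. On that scale the run 2 mean fell from 213.2 unmated to 149.2 at 6 h, while in normalised CPM it rose from 186.4 to 247. The oviduct went from 19.5, 11.0 and 21.1 to 39.0 and 30.0, then back to 15.9, 16.6 and 14.1 (1.00 ± 0.29, adjusted p = 0.115). The parovaria went from 17.5, 15.5, 21.0 and 19.4 to 21.1, 36.8 and 29.2 (0.66 ± 0.195, adjusted p = 0.292). Spermathecae and fat body gave 0.18 ± 0.18 and 0.03 ± 0.19, and their unmated and 6 h libraries overlapped. At 24 h PGRP-LB had its lowest log2 change in fat body (-0.40) and its highest in parovaria (0.40), and none was called by either adjustment.

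The 6 h libraries of PGRP-SB1 split by sequencing run. In the fat body the unmated libraries held 677 and 443 normalised CPM in run 1 and 833 and 578 in run 2. At 6 h the run 1 library held 301.5 and those of run 2 1573 and 1618. At 24 h, with run 2 only, they held 1127 and 1002. In the seminal receptacle at 6 h run 1 held 19.4 and 32.6 and run 2 held 331 and 167, and in the bursa run 1 held 17.2 and 21.1 and run 2 held 190 and 75.6. In each of the 5 tissues with both runs at 6 h, every run 2 library exceeded every run 1 library in normalised CPM, by 2.11 to 9.60 times in the mean. In CPM over the library total the runs overlapped in the parovaria, at 59.8 in run 1 and 103.5 and 57.4 in run 2. In normalised CPM before mating this order of runs held in 2 of 6 tissues and the reverse held in 3. The share of all genes with such an order was not computed.

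With both runs pooled, the log2 change of PGRP-SB1 at 6 h was largest in bursa (2.04 ± 0.70) and oviduct (1.87 ± 0.64). Seminal receptacle (1.21 ± 0.95), parovaria (1.20 ± 0.44), fat body (0.88 ± 0.49) and spermathecae (0.67 ± 0.585) followed, and no test was called by either adjustment (Benjamini-Hochberg adjusted p of 0.0515 in the bursa). For seminal receptacle, spermathecae and fat body the change within run 1 was -0.58, -1.11 and -0.89, and within run 2 it was 1.83, 1.80 and 1.18. In run 1 the unmated seminal receptacle and the 6 h fat body are 1 library each, so of these 3 tissues the spermathecae alone had 2 libraries per group in both runs. In normalised CPM, PGRP-SC2 showed the same order of runs at 6 h in all 5 tissues, by 1.45 to 7.57 times in the mean. PGRP-LB did so in 3 of 5, with ratios of the run means from 1.02 to 1.56 over the 5 tissues. In CPM over the library total the spermathecae means of PGRP-SC2 were 255.6 in run 1 and 223.2 in run 2. Those of PGRP-LB in the bursa were 351 and 149.2. In CPM over the library total, the fat body markers at 6 h followed the same order of runs in the seminal receptacle (5754 and 7867 CPM in run 1, 30660 and 14000 CPM in run 2). On that scale they did so in none of the other 4 tissues. They summed to 2033 and 3325 CPM against 7150 and 1868 CPM in the bursa and to 4313 and 6543 CPM against 9165 and 6159 CPM in the spermathecae. In the parovaria 12180 CPM in run 1 stood against 15070 and 7751 CPM, and in the fat body 45190 CPM against 50830 and 28060 CPM. These sums were not scaled by TMM factors, which differed by run. At 6 h in the bursa the factors were 1.41 and 1.49 in run 1 and 0.58 and 0.62 in run 2. The sums are thus not on the scale of the normalised CPM above, where their order of runs was not computed. The part of the fat body markers in the PGRP-SB1 values was not tested.

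**Figure D4:**
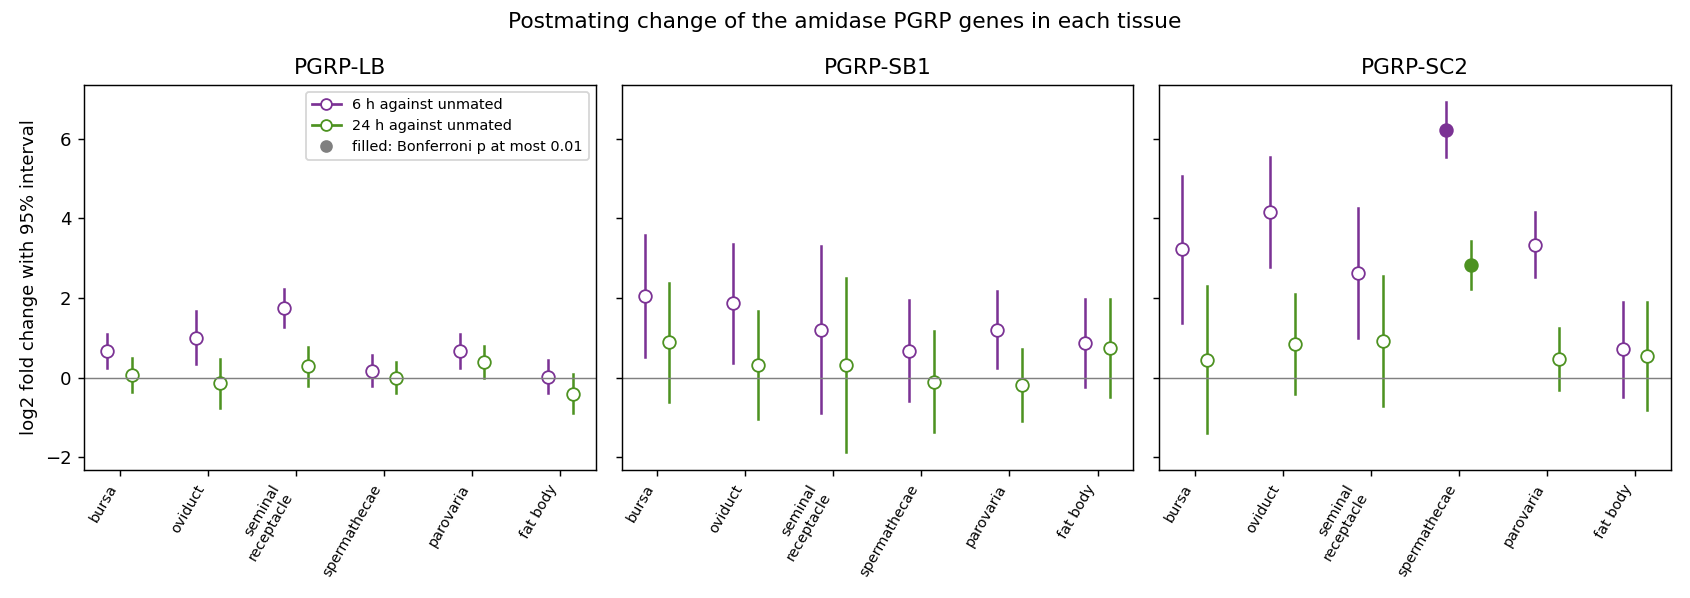
Log2 fold change against unmated at 6 h and 24 h with its 95% interval for PGRP-LB, PGRP-SB1 and PGRP-SC2 in each tissue from the edgeR fit; filled points passed the Bonferroni threshold. Only PGRP-SC2 in the spermathecae is filled, at 6.23 and 2.83.

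Counted together, 18 member-by-tissue tests were made per contrast. At 6 h 1 was called higher and none lower, against 0.234% of all gene-by-tissue tests called higher, and by Benjamini-Hochberg adjustment 6 were called higher against 3.41%. All 18 values were above 0 at 6 h, or 17 of 18 without TMM factors, where PGRP-LB in the fat body was at -0.15. Within run 2 all 18 were above 0, and within run 1 7 of the 13 that could be computed, of which 8 rest on a single library in a group. At 24 h 1 was called higher against 0.0337%, or 1 by Benjamini-Hochberg adjustment against 0.213%. From 6 h to 24 h all 18 values were below 0 with and without TMM factors and within run 2, while within run 1 3 of 10 were above 0; 1 was called lower against 0.13%, and 4 were called lower by Benjamini-Hochberg adjustment against 1.9%. Both later contrasts share libraries with the 6 h contrast.

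Whether the change at a time point differed between tissues was tested as an interaction over 8793 genes. For PGRP-LB the 6 h change differed (F = 10.4, Bonferroni-adjusted p = 0.00712), with 1.05% of genes called. Its log2 change was smallest in fat body (0.03) and largest in seminal receptacle (1.74). For PGRP-SC2, with fat body (0.71) and spermathecae (6.23) at the ends, the adjusted p was 0.054, or 5.53e-06 with the run as a covariate. For PGRP-SB1 it was 1. At 24 h none of the members was called by edgeR, 0 had an unadjusted p under 0.05, and 0.125% of genes were called. The PGRP-LB call was lost when any of 24 of 62 libraries was left out, among them all 4 unmated spermathecae, all 3 unmated seminal receptacle and all 3 fat body libraries at 6 h, and no member was called in those fits.

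The pathway around the amidases was read from fixed lists. Among 7 receptor-type PGRPs, 2 of 39 gene-by-tissue tests were called higher at 6 h, both in the bursa, where 82 of the 104 such calls over all genes and tissues lie (1.03% of the genes tested there): PGRP-SA, a circulating sensor of the Toll pathway (14.9-fold, Bonferroni-adjusted p = 4.96e-06), and PGRP-SD, a secreted co-receptor (20.7-fold, adjusted p = 0.000235). By Benjamini-Hochberg adjustment 8 of the 39 were higher and 1 lower, against 3.41% and 2.52% over all genes. The median log2 change of this list in the bursa was 0.58, against -0.02 for all genes tested there. Among 13 antimicrobial peptide genes that respond to Imd, 4 of 71 tests were called higher at 6 h, again all in the bursa, with AttA at 53.3-fold (adjusted p = 0.000291), CecA1 at 47.0-fold (0.00502), AttB at 37.9-fold (0.000363) and Mtk at 13.7-fold (0.00622). Their median in the bursa was 3.15. Over the tissues 68 of the 71 values were above 0, and 27 were higher by Benjamini-Hochberg adjustment, with 9 in the bursa, 8 in the oviduct, 3 each in seminal receptacle and parovaria and 2 each in spermathecae and fat body. In the spermathecae, where PGRP-SC2 rose, none of 11 was called at 6 h (2 by Benjamini-Hochberg adjustment) and the median was 1.04 against 0.04 for all genes. Def, the insect defensin, was called there at 24 h (17.5-fold, adjusted p = 0.00049).

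None of the 13 core Imd genes (receptor adaptor, kinases and Relish among them) and none of 7 other negative regulators of Imd was called at 6 h in any tissue by the Bonferroni threshold, in 78 and 38 tests. By Benjamini-Hochberg adjustment 3 of the 78 core tests were higher and none lower, a share close to the 3.41% of all genes, and of the 38 tests of negative regulators 4 were higher and 2 lower. The median log2 change of the core list was lowest in parovaria (-0.13) and highest in fat body (0.19). PGRP-LF stands in both the receptor and the negative regulator list. A reference list of 6 general secretion genes had no call in 36 tests, or 8 higher by Benjamini-Hochberg adjustment, with medians between 0.38 in the seminal receptacle and 0.89 in the bursa at 6 h.

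The genes whose group means followed each member most closely were taken by Pearson correlation of log2(CPM + 0.5) over the 19 groups, which share tissue makeup and runs, as a description. For PGRP-LB they were CG13068 (r = 0.954), CG13067 (0.952) and asRNA:bsAS (0.945). For PGRP-SB1 they were CG13912 (0.993), the cathepsin gene CtsL3 (0.985) and CG44140 (0.979). For PGRP-SC2 they were Ect3, which encodes a beta-galactosidase (0.905), CG5885 (0.849) and Sec61gamma, a subunit of the channel that moves proteins into the endoplasmic reticulum (0.822). Among the members themselves r was -0.46 between PGRP-LB and PGRP-SB1, -0.39 between PGRP-LB and PGRP-SC2 and 0.31 between PGRP-SB1 and PGRP-SC2.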

How the data were processed

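The deposited table was read as whole-number read counts per gene, although its name gives CPM; library totals differed. Per the labels and methods, the authors mapped single-end reads to FlyBase r6.21 with HISAT2 2.1.0, counted them per gene with StringTie, and deposited the counts unscaled. Identifiers were matched to symbols for 17624 of 17752 genes (99.28%), and coordinates come from BDGP6.54. In 14 columns the replicate number differed from the sample titles, so these were assigned to their group only. Nothing in the labels says whether pools were collected separately, so p-values measure the spread between pools.

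Analyses used R 4.3.3, edgeR 4.0.16, limma 3.58.1, DESeq2 1.42.0 and matplotlib 3.10.9. Separate fits per tissue used the quasi-likelihood test of edgeR with TMM factors and neither block nor run term, over genes above 2 CPM in 2 or more libraries from the same group, with Bonferroni-adjusted p of at most 0.01 (0.001 and a log2 difference of 2 or more against the whole female). Unmated tissues and interactions were fitted jointly. All 6 members were named, plus at most 4 called genes per list and the 3 closest genes per member over a pseudocount of 0.5. The members and lists were chosen with earlier results of these data known. The fits were tested on simulated data. Alternatives were DESeq2, no TMM, no filter, run as covariate, run 2 alone, the PGRP-SC1 copies summed, a replicate block and each library left out. Another was a Benjamini-Hochberg adjusted p of at most 0.05, with a log2 difference of 1 or more against the whole female. Run 1 alone was added after seeing the data. No sequence is printed.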

Additional observations from a re-analysis of the deposited data

Results flagged for a closer look

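The change of PGRP-LB at 6 h differed between tissues by the interaction test across tissues, with a Bonferroni-adjusted p of 0.00712 (edgeR). The log2 change was 1.74 ± 0.21 in the seminal receptacle, 1.00 ± 0.29 in the oviduct, 0.66 in the bursa and in the parovaria, 0.18 in the spermathecae and 0.03 in the fat body. With the run as a covariate the adjusted p was 0.00443. The call was lost without the filter on low counts and when any of 24 of 62 libraries was left out. Of the 10 groups of 4 libraries, none held an outlying library for PGRP-LB, PGRP-SB1 or PGRP-SC2, in 30 checks.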

How the results depend on the processing

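No called value reversed. The 4 called postmating and whole female values of single members gave 34 values under the other settings, of which 28 stayed called and 6 did not. Of 570 values of those not called, 43 became called. Where the replicate block or run 1 alone could not be fitted, the main value stood in. Part of the 570 values were therefore unchanged by construction. At 6 h, 1 change was called, against 4 with DESeq2, 2 without TMM factors, 2 without the filter, 2 with the run as a covariate, 6 by Benjamini-Hochberg adjustment and 0 with run 1 alone; leaving out a library gave 1 to 2 (2 without parovaria 24 h replicate 1). At 24 h, 1 was called, against 0 with run 2 alone or run 1 alone, and leaving out a library gave 0 to 1. From 6 h to 24 h, 1 was called, against 4 with DESeq2, 2 without TMM factors, 4 by Benjamini-Hochberg adjustment and 0 with run 2 alone (adjusted p = 0.0359) or run 1 alone; leaving out a library gave 1. Against the whole female, 1 was called, against 8 with DESeq2, 0 without TMM factors and 6 with all unmated libraries in a single fit. By Benjamini-Hochberg adjustment, with the log2 threshold also lowered to 1, it was 14. Leaving out a library gave 0 to 1. Between unmated tissues, 15 were called, against 36 by Benjamini-Hochberg adjustment, and 15 to 17 when leaving out a library. For the 6 h difference between tissues, 1 member was called, against 0 without the filter, 2 with the run as a covariate and 2 by Benjamini-Hochberg adjustment; leaving out a library gave 0 to 2 (2 without bursa 6 h replicate 3). PGRP-SC2 in the spermathecae carried the calls lost with a single run. For the 24 h difference the count was 0 throughout. Counts without the filter also took in PGRP-SB2, PGRP-SC1a and PGRP-SC1b where they had reads, so they cover more tests than the main counts. Without TMM factors the median postmating change of all genes lay between -0.54 and 0.18. Where an alternative changed a count, the cause was not tested, beyond the fewer libraries of the single-run fits.

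Replicate numbers did not pair the time points within a tissue. Same-numbered libraries of different time points correlated at a median of 0.239 (18 of 31 pairs above 0.1). Other-numbered libraries of the same run gave 0.17 (18 of 30) and libraries of different runs -0.20 (4 of 60), so libraries grouped by run. The paper separated the tissues from the same dissected tracts, and pairing between tissues was not checked. The main joint fits treated libraries of different tissues as independent. A replicate block, possible where columns carry matching numbers, gave 1 call at 6 h, 1 at 24 h, 1 from 6 h to 24 h and 17 between unmated tissues. In both contrasts with 6 h the block covered bursa and spermathecae only, and at 24 h against unmated also oviduct and parovaria. The other tissues, and unmated pairs with the seminal receptacle, entered these counts with the values of the main fit. For the 6 h difference between tissues it gave 0, from bursa and spermathecae only. For the 24 h difference it gave 0, from bursa, oviduct, spermathecae and parovaria. The 6 h block left out the seminal receptacle and the fat body, so its count cannot be set against the main one. Counts of 5 to 35 limit PGRP-SC2 in unmated bursa, oviduct and parovaria, and PGRP-SB2, PGRP-SC1a and PGRP-SC1b were too low to test in the main fits.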

Other observations

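Lysozymes, which cut the sugar backbone of the same peptidoglycan that amidase PGRPs trim at its peptides, were scarce in the dissected tissues. None of the 7 lysozyme genes found passed the expression filter in any tissue. The highest value in a tissue library was 5.10 CPM for LysS, and the other 6 stayed at or below 0.923 CPM. In the whole female LysD reached 42.8 CPM, LysP 36.8 CPM and LysB 21.7 CPM. These genes lie in clusters of similar copies, so the split of reads between them is uncertain.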
